A study of Rattus norvegicus with 6 samples.

Results

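The miR-181 family was followed across 6 small RNA libraries of rat cortical neurons. Its members were the rows named rno-miR-181a-5p, rno-miR-181b-5p, rno-miR-181c-5p, rno-miR-181d-5p, rno-miR-181a-1-3p, rno-miR-181a-2-3p and rno-miR-181c-3p (rno for rat, left out from here on), and all 7 were found among the 649 mature miRNAs listed in each library. The neurons came from embryonic day 18 Sprague-Dawley rats of both sexes and were cultured for 7 days in vitro by the sample labels (a figure legend of the study gives a slightly younger age), with fluorodeoxyuridine added to the cultures to stop the division of non-neuronal cells. They then received 100 ng/ml BDNF, a neurotrophin that promotes dendrite growth, or the vehicle with BSA, for 20 min. There were 3 control and 3 BDNF libraries, numbered as replicates 1 to 3 in the sample labels and described in the methods as biological replicates.

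MicroRNAs are short RNAs that guide Argonaute proteins to messenger RNAs and repress them, and pairing rests largely on the seed, bases 2 to 8 of the miRNA. Each hairpin precursor is cut by Dicer into a 5p and a 3p arm, and usually one of them is retained more than the other. The miR-181 family is conserved across vertebrates, is known for tuning antigen receptor signalling in developing T cells, and is abundant in brain, where miR-181a has been linked to glutamate receptor expression at synapses. Its members come from several precursors that lie in pairs on different chromosomes, so that one mature sequence can have more than one source.

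The mature sequences show why the 5p arms are counted as one seed family and why single members are hard to tell apart. They are given 5′ to 3′ from RefSeq on the rat build GRCr8, with the seed in capitals, and a RefSeq sequence was found by name for 7 of the 7 members.
miR-181a-5p: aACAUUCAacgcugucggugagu
miR-181b-5p: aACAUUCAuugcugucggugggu
miR-181c-5p: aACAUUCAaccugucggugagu
miR-181d-5p: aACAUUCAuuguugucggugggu
miR-181a-1-3p: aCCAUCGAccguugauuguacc
miR-181a-2-3p: aCCACCAAccguugacugu
miR-181c-3p: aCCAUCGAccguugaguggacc

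All 4 5p members carried the same seed, and among 693 rat mature names in the RefSeq table none outside the family had it. Counted from 1 at the 5′ end, miR-181b-5p and miR-181d-5p differed by the single substitution C12U. MiR-181a-5p became miR-181c-5p by deletion of the base at position 11. MiR-181a-5p and miR-181b-5p were further apart, with A9U, C10U and A21G. Among the 3p members, miR-181a-1-3p and miR-181c-3p shared a seed and differed by U16G and U19G, whereas miR-181a-2-3p had a seed of its own. Because the read assignment allowed 1 mismatch and the treatment of reads matching several miRNAs is not given in the sources used here, the split between miR-181b-5p and miR-181d-5p carries that uncertainty.

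The members came from 3 genomic loci, all on the plus strand of GRCr8. At the first, miR-181a-5p lay at chr13:52037081-52037103 and miR-181a-1-3p at chr13:52037121-52037142, with miR-181b-5p downstream at chr13:52037263-52037285. In the RefSeq gene table this pair lay inside the long non-coding RNA gene LOC108352541, and the hairpin of miR-181a-1 also overlapped Mir3570. At the second, the hairpin Mir181a2 at chr3:43025563-43025679, which holds a second copy of miR-181a-5p and the only copy of miR-181a-2-3p, was followed by Mir181b2 at chr3:43026666-43026753. Both lay within the interval of the protein-coding gene Nr6a1, an orphan nuclear receptor, and of the long non-coding RNA gene LOC120101539. At the third, the hairpins Mir181c at chr19:40888291-40888396 and Mir181d at chr19:40888474-40888556 overlapped no other listed gene, with Nanos3 as the nearest protein-coding gene. The table used gives gene intervals only, so exons and introns were not distinguished. A read of miR-181a-5p or miR-181b-5p can therefore come from chromosome 13 or 3, a read of either miR-181a 3p arm from only one of them, and reads of miR-181c and miR-181d from chromosome 19.

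The libraries held between 10374120 and 12533029 counts, and RPM are counts divided by these totals and scaled to a common depth, so that 10 RPM corresponded to 103.7 to 125.3 reads. Normalized RPM are also divided by the TMM factor of edgeR, which lay between 0.928 and 1.08. The 7 members together took between 1.72% and 2.67% of a library. The neuronal miRNAs miR-124-3p, miR-9a-5p, miR-128-3p, miR-137-3p and miR-138-5p were all detected. Their summed level was 311022 to 412641 normalized RPM in control and 348150 to 445173 in BDNF libraries, nearly all of it miR-9a-5p and miR-128-3p. The glia-linked list summed to between 5198 and 8119 normalized RPM over all libraries, nearly all of it miR-21-5p. The 9 vessel and blood miRNAs that were listed summed to between 143 and 217.

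In unstimulated neurons, miR-181a-5p was the most abundant member and ranked 17th of all 649 miRNAs. It was read at 10434, 13294 and 14945 normalized RPM in control replicates 1 to 3, averaging 12891 ± 2282 (SD, n = 3). MiR-181b-5p followed at 2530, 3296 and 3736 normalized RPM, with a mean of 3187 ± 610 (SD, n = 3). MiR-181d-5p, the downstream member of the chromosome 19 pair, was read at 2658, 3073 and 3249 normalized RPM, with a mean of 2993 ± 304 (SD, n = 3). The last 2 did not differ beyond their spread, since the ratio of miR-181b-5p to miR-181d-5p ran from 0.952 to 1.15 over the control libraries. MiR-181c-5p was the rarest 5p member, at 279, 320 and 310 normalized RPM and a mean of 303 ± 21 (SD, n = 3).

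Of the 3p members, miR-181a-1-3p and miR-181c-3p lay between the 5p arms, and miR-181a-2-3p lay below all of them. MiR-181a-1-3p, the partner of miR-181a-5p on the chromosome 13 hairpin, was read at 1439, 1542 and 1501 normalized RPM in control replicates 1 to 3, averaging 1494 ± 52 (SD, n = 3). MiR-181c-3p was read at 1007, 825 and 889 normalized RPM, with a mean of 907 ± 92 (SD, n = 3). It stood above its own 5p arm in each of the control libraries. MiR-181a-2-3p, from chromosome 3, was read at 85.5, 85.6 and 98.9 normalized RPM, with a mean of 90.0 ± 7.7 (SD, n = 3). From the highest level to the lowest, the order was therefore miR-181a-5p, then miR-181b-5p and miR-181d-5p without a separation, then miR-181a-1-3p, miR-181c-3p, miR-181c-5p and miR-181a-2-3p. The ranges of the control libraries did not overlap at any of the other steps of this order. These are orders of reads and not of molecules.

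**Figure D1:**
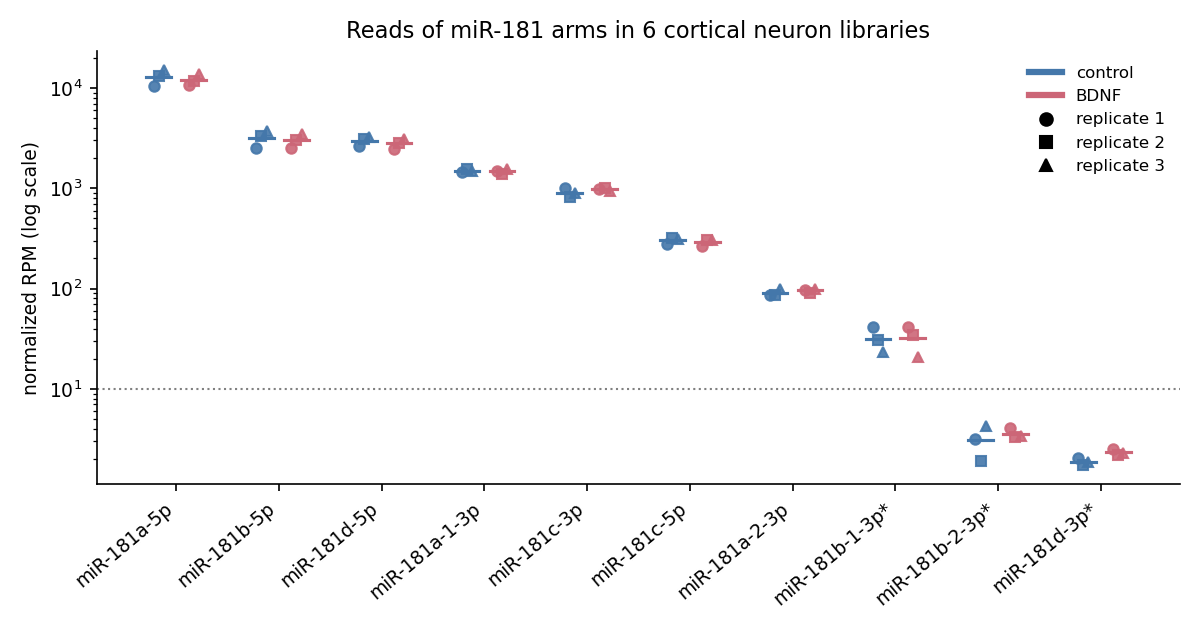
Normalized RPM on a log axis for the 10 rows of the miR-181 family in each library, ordered by the control mean; points are libraries, short lines are group means, the dotted line is 10 RPM, and an asterisk marks rows outside the 7 members. Control and BDNF points of a row lie close together, while the control means span from 1.88 for miR-181d-3p to 12891 for miR-181a-5p.

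The files list 3 further arms of these hairpins, which are not among the 7 members. MiR-181b-1-3p had 261 to 453 reads per library and a control mean of 31.8 ± 9.2 normalized RPM (SD, n = 3). MiR-181b-2-3p had 23 to 48 reads and miR-181d-3p 21 to 30 reads, both below the limit of 10 RPM used for testing. MiR-181d-3p was read 21 times in every control library and 27, 24 and 30 times in BDNF replicates 1 to 3. Its groups did not overlap in normalized RPM either. At this depth the row was not tested, and the share of such rare rows without overlap was not counted.

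Members differed in how much they varied between replicates of one condition. MiR-181a-5p had a coefficient of variation of 17.7% over control libraries and 12.8% over BDNF libraries, and miR-181b-5p had 19.1% and 15.3%. For the 336 miRNAs tested, the medians were 13.4% and 11.9%. In contrast, miR-181a-1-3p varied by only 3.5% and 5.7%, and 24 of the 336 miRNAs had a lower coefficient of variation in control. The highest control library exceeded the lowest by 1.43-fold for miR-181a-5p and by 1.07-fold for miR-181a-1-3p.

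For the 5p arms this variation followed the replicate number. Replicate 1 was the lowest of the 3 for miR-181a-5p, miR-181b-5p, miR-181c-5p and miR-181d-5p, in control and in BDNF libraries alike. MiR-181b-1-3p went the other way, with 41.6, 30.5 and 23.3 normalized RPM in control and 41.8, 34.6 and 20.99 in BDNF replicates 1 to 3. It was the highest in replicate 1 and the lowest in replicate 3 in both conditions. The 3p members kept no such order, and the lowest library of miR-181a-1-3p, miR-181a-2-3p and miR-181c-3p had a different replicate number in control than in BDNF libraries. The share of miR-9a-5p, the most abundant miRNA, also differed between replicates, at 30.1%, 30.8% and 25.0% in control and 33.1%, 30.2% and 28.2% in BDNF libraries, and its part in the differences between replicates was not tested.

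The effect of BDNF on total levels was tested with edgeR's quasi-likelihood test over 336 miRNAs, those whose mean reached 10 RPM in control or in BDNF libraries, and all 7 members did so in both. None of the 7 members passed the test. Since whole cultures were sequenced, fewer cells of a type and less RNA per cell could not be told apart. No member had a Benjamini-Hochberg adjusted p-value below 0.05, the smallest among them being 0.999, against 0 of 336 miRNAs (0%) in the same fit. No member passed an unadjusted threshold of 0.05 either, against 10 of 336 miRNAs (2.98%). For none of the 7 members did the BDNF libraries all lie on one side of the control libraries, which was the case for 24 of 336 miRNAs (7.14%). When the replicate number was added to the model as a block, where 69 of 336 miRNAs (20.5%) passed the unadjusted threshold, again no member did, and the smallest adjusted p-value of a member was 0.51. Log2 fold changes were below 0 for 5 members and above 0 for 2, with a median of -0.05, where the median of all 336 was -0.0015 and 171 of them (50.9%) were below 0. The median size was 0.084 for the members and 0.092 for all miRNAs tested.

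Each of the 4 5p arms had a log2 fold change slightly below 0. In BDNF replicates 1 to 3, miR-181a-5p was read at 10678, 11853 and 13750 normalized RPM, within the range of the control libraries. The BDNF mean was 12093 ± 1550 (SD, n = 3), and the log2 fold change was -0.09 (SE 0.16, 95% interval -0.48 to 0.30). Compared with the control library of the same number, its level was 1.02, 0.89 and 0.92 times as high. The first of these ratios depended on the scaling, since in RPM without the TMM factor BDNF replicate 1 was below control replicate 1, with 9905 against 10364.

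MiR-181b-5p had 2537, 3051 and 3459 normalized RPM in BDNF replicates 1 to 3, and its log2 fold change was -0.08 (SE 0.18, 95% interval -0.50 to 0.34). MiR-181c-5p had 266, 306 and 305 normalized RPM, with a log2 fold change of -0.05 (SE 0.11, 95% interval -0.31 to 0.21). MiR-181d-5p had 2484, 2858 and 3129 normalized RPM, with a log2 fold change of -0.08 (SE 0.13, 95% interval -0.39 to 0.22). In normalized RPM, the latter 2 members, both from chromosome 19, were lower in each of the 3 pairs of libraries with the same number. The ratios were 0.956, 0.956 and 0.984 for miR-181c-5p and 0.935, 0.930 and 0.963 for miR-181d-5p. A lower normalized level in all 3 pairs was found for 80 of the 336 miRNAs tested (23.8%). The ratios of miR-181b-5p were 1.003, 0.926 and 0.926. In RPM without the TMM factor, every 5p member was lower in each of the 3 pairs, so this trait was not particular to chromosome 19. How many of the 336 miRNAs did so on that scale was not counted, and the 23.8% holds for normalized RPM only. With the replicate block, the 95% interval of miR-181d-5p narrowed to between -0.23 and 0.06 on the log2 scale, and the unadjusted p-value from edgeR was 0.20.

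The 3p arms showed no common direction. MiR-181a-1-3p was read at 1471, 1402 and 1569 normalized RPM in BDNF replicates 1 to 3, and its log2 fold change was -0.01 (SE 0.09, 95% interval -0.22 to 0.20), the narrowest interval of the 7 members without the block. MiR-181a-2-3p had 97.6, 89.5 and 100.2 normalized RPM, with a log2 fold change of 0.09 (SE 0.12, 95% interval -0.20 to 0.38). It was higher in all 3 pairs, with ratios of 1.14, 1.05 and 1.01, as were 54 of the 336 miRNAs (16.1%). MiR-181c-3p had 979, 1010 and 938 normalized RPM, with a log2 fold change of 0.11 (SE 0.10, 95% interval -0.14 to 0.35). It was the largest estimate above 0 in the family, and it rested on replicate 2, with pair ratios of 0.97, 1.22 and 1.06.

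**Figure D2:**
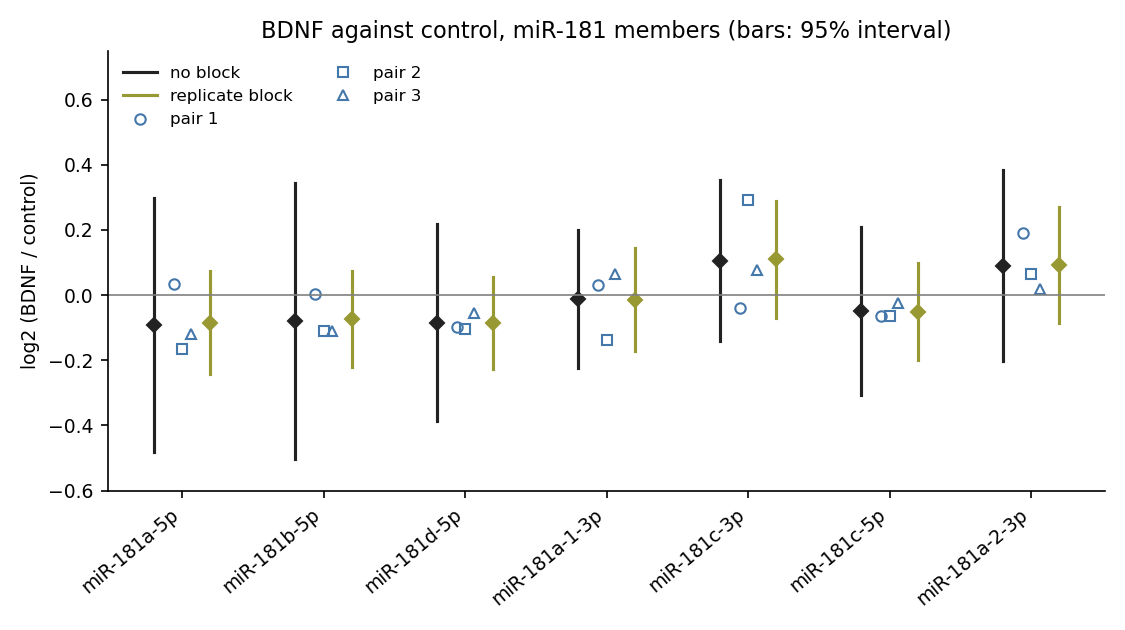
Log2 ratio of BDNF to control for the 7 members; diamonds are the edgeR estimates without and with the replicate block, bars their 95% intervals, and open symbols the ratios of libraries with the same replicate number. Every interval includes 0, and the bars with the block are shorter, most of all for miR-181a-5p and miR-181b-5p.

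Since the 4 5p arms share a seed, their summed level and its makeup were also examined. The sum was 15901, 19982 and 22240 normalized RPM in control replicates 1 to 3 and 15965, 18067 and 20643 in the BDNF replicates, so that both conditions were lowest in replicate 1 and highest in replicate 3. MiR-181a-5p made up 66.4 ± 0.8% of these reads in control (SD, n = 3) and 66.4 ± 0.7% in BDNF libraries (SD, n = 3). The share of miR-181b-5p was 16.4 ± 0.5% (SD, n = 3) and 16.5 ± 0.5% (SD, n = 3). MiR-181d-5p contributed 15.6 ± 1.1% (SD, n = 3) and 15.5 ± 0.3% (SD, n = 3), and miR-181c-5p 1.58 ± 0.18% (SD, n = 3) and 1.61 ± 0.12% (SD, n = 3). The makeup thus varied little, although the sum varied between replicates. The differences between conditions were smaller than the spread between replicates for all 4 members. In 2-sided exact permutation tests, 1 for each of the 4 members, the p-values were 0.9, 0.8, 1.0 and 0.7 in the order given, where 0.1 is the smallest value possible with 3 libraries against 3.

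**Figure D3:**
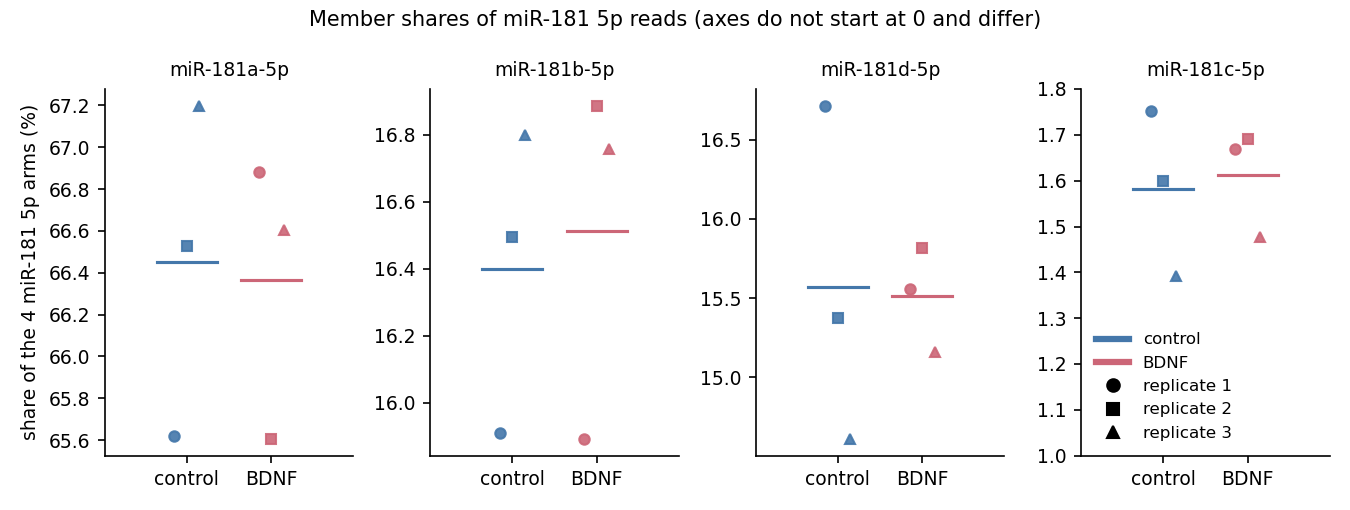
Share of each 5p member, in percent, in the summed reads of the 4 miR-181 5p arms; points are libraries, lines are group means, and each panel has its own axis that does not start at 0. Control and BDNF points overlap for every member, and the shares stay near 66%, 16%, 16% and 1.6%.

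The 3p arms report on the loci separately. MiR-181a-1-3p, from chromosome 13, outnumbered miR-181a-2-3p, from chromosome 3, by 16.8, 18.0 and 15.2 to 1 in control replicates 1 to 3 and by 15.1, 15.7 and 15.7 to 1 in the BDNF replicates. It took 94.3 ± 0.5% of the miR-181a 3p reads in control (SD, n = 3) and 93.9 ± 0.1% in BDNF libraries (SD, n = 3). On the log2 scale this ratio averaged 4.06 ± 0.12 (SD, n = 3) without and 3.95 ± 0.03 (SD, n = 3) with BDNF, a difference of -0.11 with a 2-sided exact permutation p-value of 0.3. The hairpins of miR-181b showed the same order, with miR-181b-1-3p from chromosome 13 at 84.5% to 94.1% of the miR-181b 3p reads over the control libraries. How far these shares carry over to the identical 5p arms cannot be read from the counts. The chromosome 19 locus, counted over both arms of miR-181c and miR-181d, gave 21.4%, 18.8% and 18.0% of all miR-181 reads in control replicates 1 to 3 and 20.1%, 20.3% and 18.8% in the BDNF replicates.

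Within the chromosome 19 locus the neighbouring hairpins differed widely. MiR-181d-5p was read 9.54, 9.62 and 10.5 times as often as miR-181c-5p in control replicates 1 to 3, and 9.32, 9.35 and 10.3 times as often in the BDNF replicates. The ratio was stable between replicates and lower with BDNF in all 3 pairs, by amounts below the spread of the control libraries. The 2-sided exact permutation p-value was 0.5. This ratio of 5p arms leaves out the 3p arm, which held most miR-181c reads. Of all miR-181 reads in control replicates 1 to 3, miR-181d-5p took 14.4%, 13.7% and 13.1%. MiR-181c-5p took 1.51%, 1.42% and 1.25%, and miR-181c-3p 5.45%, 3.67% and 3.59%. With both arms counted, the gap between the hairpins was therefore smaller.

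The hairpins also differed in which arm prevailed. The log2 ratio of 5p to 3p reads was compared with limma over 96 precursor names for which both arms reached 10 RPM, after the counts of loci with the same arm name had been summed. In control libraries the 5p arm prevailed in 58 of them and the 3p arm in 38. MiR-181a and miR-181b were among the former and miR-181c among the latter, in every one of the 6 libraries.

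For miR-181a, the ratio of 5p reads to the 3p reads of both loci was 6.85, 8.17 and 9.34 in control replicates 1 to 3 and 6.81, 7.95 and 8.24 in the BDNF replicates. On the log2 scale this averaged 3.01 ± 0.22 (SD, n = 3) without and 2.93 ± 0.15 (SD, n = 3) with BDNF. The change was -0.08 (SE 0.15, 95% interval -0.43 to 0.27), and limma gave an adjusted p-value of 0.96. Replicate 1 had the lowest ratio in both conditions, as it had the lowest level of miR-181a-5p.

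For miR-181c, the 3p arm was read 3.62, 2.58 and 2.87 times as often as the 5p arm in control replicates 1 to 3 and 3.68, 3.31 and 3.08 times as often in the BDNF replicates. The 3p arm thus took 74.9 ± 3.2% of the miR-181c reads in control (SD, n = 3) and 77.0 ± 1.6% in BDNF libraries (SD, n = 3). On the log2 scale, 5p over 3p averaged -1.58 ± 0.25 (SD, n = 3) without and -1.74 ± 0.13 (SD, n = 3) with BDNF. The change was -0.16 (SE 0.15, 95% interval -0.52 to 0.20), for which limma gave an adjusted p-value of 0.96. The ratio was lower in all 3 pairs for miR-181c and for miR-181a, as for 23 of 96 precursor names (24%). The groups overlapped for both, while for 6 of 96 names (6.25%) they did not. The estimates were below 0 for miR-181a, miR-181b and miR-181c, as for 58 of 96 names (60.4%). With the replicate block the adjusted p-value in limma was 0.57 for miR-181c and 0.74 for miR-181a and miR-181b. In the fit without the block, 0 of 96 precursor names (0%) passed an adjusted threshold of 0.05. There, 2 of 96 (2.08%) passed an unadjusted one, neither of them from this family. With the block, 12 of 96 (12.5%) passed the unadjusted threshold, again without miR-181a, miR-181b or miR-181c.

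MiR-181b had the least stable arm ratio of the 3. Its 5p arm was read 56.5, 101 and 135.4 times as often as its 3p arms in control replicates 1 to 3, and 55.3, 80.4 and 142 times as often in the BDNF replicates. The standard deviation of its log2 ratio over control libraries was 0.64, where the median over the 96 precursor names was 0.22 and 2 names had a larger one. The mean log2 ratio was 6.52 in control and 6.42 in BDNF libraries, a change of -0.10 (SE 0.41, 95% interval -1.06 to 0.86). MiR-181d was the most one-sided of the 4 names, with 1312, 1749 and 1735 reads of the 5p arm for each read of the 3p arm in control replicates 1 to 3 and 997, 1303 and 1347 in the BDNF replicates. These values rest on the 21 to 30 reads of miR-181d-3p per library and were not tested in the limma fit.

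**Figure D4:**
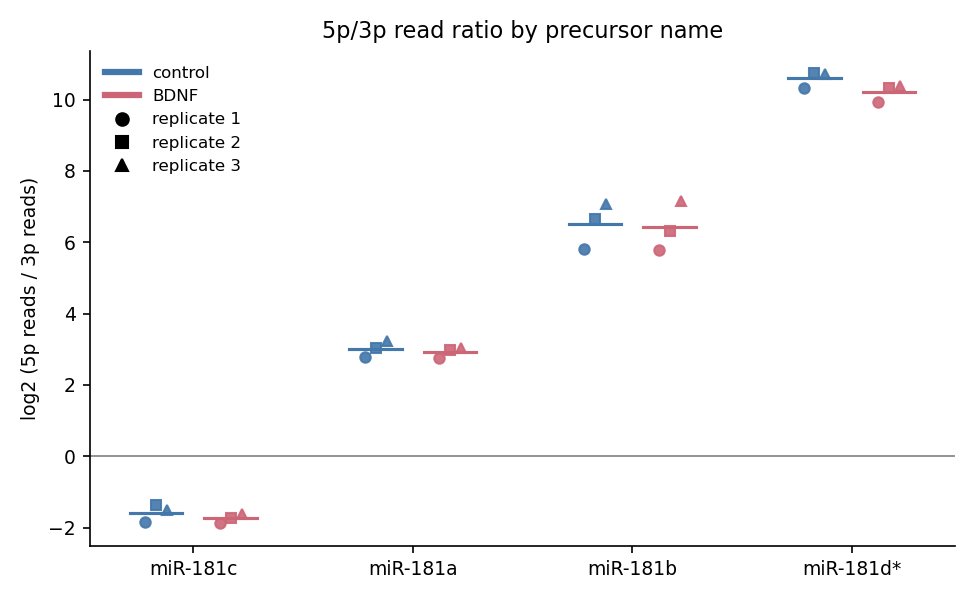
Log2 ratio of 5p to 3p reads for the 4 precursor names of the family; points are libraries, lines are group means, and the asterisk marks miR-181d, whose 3p arm is below 10 RPM. Only miR-181c lies below 0, the side on which the 3p arm prevails, in all 6 libraries.

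Profiles over the 6 libraries were compared with those of the 328 tested miRNAs outside the family, by the root mean square difference of centred log2 normalized RPM. Within the family, miR-181a-5p and miR-181b-5p ran most closely together, with a difference of 0.037, and miR-181c-5p and miR-181d-5p followed with 0.065. Both pairs share a cluster on the genome, but miR-181a-5p and miR-181d-5p, from different chromosomes, were nearly as close, with 0.071, and miR-181b-5p and miR-181d-5p differed by 0.086. MiR-181a-5p differed by 0.16 from miR-181a-1-3p, the other arm of its hairpin. Outside the family, the closest profile to miR-181a-5p was that of miR-24-3p at 0.039, followed by miR-361-5p and miR-298-5p, where the median over the 328 miRNAs was 0.24. For miR-181b-5p the closest were miR-346 at 0.048, miR-183-5p and miR-24-3p. MiR-181c-5p was nearest to miR-20b-5p at 0.044, miR-369-5p and miR-667-5p, and miR-181d-5p to miR-667-5p at 0.027, miR-17-1-3p and miR-935.

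The 3p arms had other neighbours. MiR-181a-1-3p was nearest to miR-379-3p at 0.040, miR-106b-3p and miR-30c-2-3p. MiR-181a-2-3p was nearest to miR-582-3p at 0.052, miR-409a-5p and miR-99b-5p. MiR-181c-3p was nearest to miR-874-3p at 0.031, miR-409a-3p and miR-342-5p. MiR-181b-1-3p, which is not one of the 7 members, was nearest to miR-101b-3p at 0.053, miR-340-5p and miR-382-3p. With 6 libraries and 328 candidates, such small differences are a description of these profiles only.

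For context, 18 miRNAs linked to plasticity or enriched in neurons were examined in the same fit, and 17 of them passed the filter. Their log2 fold changes were below 0 for 9 and above 0 for 8, with a median of -0.02. None had an adjusted p-value below 0.05. An unadjusted p-value below 0.05 in edgeR was found for 1 of the 17, miR-16-5p, with a log2 fold change of -0.41. The study had already reported this miRNA as lowered by BDNF in these same libraries, so its result here is not independent. Without the block, 10 of 336 miRNAs (2.98%) passed the unadjusted threshold in either direction. With the replicate block, 5 of the 17 passed the unadjusted threshold, miR-16-5p among them, beside 69 of 336 miRNAs (20.5%) in either direction in that fit. All 5 had a log2 fold change below 0, a direction for which no share over the 336 is given. No test compared this list with the miR-181 members.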

How the data were processed

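Raw read counts per mature miRNA were deposited by the authors for each of the 6 libraries (3 control, 3 BDNF), 1 file per library. Before deposit, the authors had trimmed adapters and low-quality reads, discarded inserts under 15 nucleotides and matched the remainder to the rat mature miRNAs in miRBase with Miraligner, allowing 1 mismatch and 3 nucleotides of trimming or 3′ addition. Tool versions are not given in the sources used here. Reads carry no molecular identifiers.

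Counts were fitted with edgeR 4.0.16 in R 4.3.3 (TMM factors, library size equal to the sum of the file, quasi-likelihood test, Benjamini-Hochberg adjustment over the 336 miRNAs whose mean reached 10 RPM in either condition). The SE is the log2 fold change divided by the root of F. Log2 5p/3p ratios, with 0.5 counts added, were fitted with limma 3.58.1 over 96 precursor names. Shares and the locus ratio were compared by 2-sided exact permutation. Both fits were tested on simulated data without replicate effects and with larger changes than those estimated for the members. Those runs do not show whether changes as small as these could be found. All family rows were named, with the 3 nearest profiles for each tested one. Members and lists were chosen with earlier results of these data known.

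Libraries of the same replicate number deviated together from their group means, with correlations across miRNAs of 0.80, 0.48 and 0.89, so the numbers in the labels were taken to pair the libraries. The main fit has no block, since the methods state none, and the exact permutation tests ignore the pairing as well. All replicates of a condition differed by more than sampling noise (chi-square of at least 147 per degree of freedom). Alternatives were the replicate block, DESeq2 1.42.0, other scaling factors, filters and pseudocounts, limma on log2 RPM, and leaving out each library.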

Additional observations from a re-analysis of the deposited data

How the results depend on the processing

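With 3 libraries per condition and no replicate block, only changes well above the spread between replicates could be detected. The block takes out the spread that libraries of the same number share. The SE of the log2 fold change of miR-181a-5p was 0.16 without and 0.069 with it. The number of miR-181 members with an adjusted p-value below 0.05, and with an unadjusted one, stayed at 0 under each of 9 alternatives to the edgeR fit (among them DESeq2 and the replicate block) and without each of the 6 libraries. In all, 185 of 207 recomputed values kept their direction and their side of the threshold, and 22 changed sign, none of them past a threshold. With upper-quartile factors the log2 fold change of miR-181a-1-3p was 0.017, and as a share of all miR-181 reads the difference of miR-181b-5p was -0.038 percentage points. With the replicate block, the log2 fold changes were -0.08 for miR-181a-5p and 0.11 for miR-181c-3p, and no call changed. The changes in log2 5p/3p ratio, -0.08 for miR-181a and -0.16 for miR-181c, could not move with the block. The same holds for the shares and the locus ratio, since each replicate number has a control and a BDNF library. Dropping the filter or the variance trend could not move the estimates of the arm ratios either. Such values count among the 185 that kept their direction, and they say nothing on stability. The exact tests of the shares and the locus ratio could not reach 0.05 with so few libraries, so their side of the threshold was fixed in advance.

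When each library was left out in turn, log2 fold changes ranged from -0.20 to 0.041 for miR-181a-5p, from -0.19 to 0.063 for miR-181b-5p, from -0.083 to 0.0083 for miR-181c-5p, from -0.16 to -0.0040 for miR-181d-5p, from -0.057 to 0.025 for miR-181a-1-3p, from 0.055 to 0.18 for miR-181a-2-3p and from 0.042 to 0.21 for miR-181c-3p. The estimate of miR-181d-5p was -0.0040 without BDNF replicate 1 and -0.0086 without control replicate 3, and that of miR-181a-2-3p was 0.18 without control replicate 3. The change in log2 5p/3p ratio ranged from -0.19 to 0.031 for miR-181a, from -0.30 to -0.055 for miR-181c and from -0.46 to 0.22 for miR-181b. The log2 ratio of miR-181a-1-3p to miR-181a-2-3p changed by between -0.17 and -0.048. Differences in share, in percentage points, ranged from -0.50 to 0.29 for miR-181a-5p, from -0.13 to 0.42 for miR-181b-5p, from -0.063 to 0.12 for miR-181c-5p and from -0.54 to 0.52 for miR-181d-5p, and each of the 4 changed sign. Without control replicate 3, the signs of miR-181a-5p, miR-181b-5p, miR-181a-1-3p and the miR-181a and miR-181b arm ratios changed. Without BDNF replicate 1, those of miR-181b-5p, miR-181c-5p and the same arm ratios did, and without control replicate 2 or BDNF replicate 2 that of miR-181a-1-3p. The cause was not tested.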
